A study of Homo sapiens with 4 samples.

Results

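The genes described here were 57 broadly expressed genes of human chromosome 14, all 57 of which had a row in the table of 16811 genes that the authors deposited. The members were chosen by name from those known to be active in most tissues, and the chromosome was chosen by its lower values in edited than in wild-type cells in these same libraries. The difference between edited and wild-type cells is therefore a description of these genes, and no test of it is offered as support. RNA-seq had been made from MCF12A cells, which come from breast epithelium and form no tumours, with 2 wild-type libraries and 2 libraries of cells labelled *C1orf132* KO. In the edited cells Cas9 had been used to delete the p2 promoter of *C1orf132*, the host gene of miR-29b2 and miR-29c, and the cells had been grown from sorted single cells. The colony behind each library is not given in the sources used here, and the wild-type cells were not described as a single-cell line, so the deletion and the history of the colony cannot be told apart. Both groups were the same line grown in the same medium with serum, EGF, hydrocortisone, cholera toxin and insulin. *C1orf132* was not analysed here, and the grouping of the libraries follows their labels alone.

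Chromosome 14 is one of the acrocentric chromosomes of the human set, whose short arm carries ribosomal DNA, so that its protein-coding genes lie along the long arm. The members do work that nearly every cell needs, such as repairing and copying DNA, splicing and translating RNA, moving proteins through the endoplasmic reticulum and Golgi, and feeding the mitochondrial cycle of organic acids. Many of their proteins act in complexes whose other subunits are encoded on other chromosomes. In RefSeq on GRCh38.p14 they ran from *PARP2*, starting at position 20343635, to *MTA1*, ending at 105470729.

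Values are the normalised expression signal of the deposited table, which holds no counts, so the read depth is unknown and the error is the spread between the 2 libraries of a group. The sums of all genes ran from 1444640 to 1655440 per library. A share kept is the mean of the edited libraries over the mean of the wild-type libraries, in percent. A log2 fold change is edited minus wild-type on log2(value + 1), with the standard error of limma's fit over the 9590 genes with a mean of at least 10, and it understates the change of low genes. The median log2 fold change of all 9590 genes was 0.09. Where values stand in pairs, replicate 1 comes before replicate 2, and the edited pair comes before the wild-type pair. Of the 57 members 55 passed this filter, and *FANCM* and *SOS2* lay under it. Of 10 mammary epithelial markers 8 were lower in edited cells, their summed signal being 4969 and 5812 against 11590 and 20782. *KRT5*, a basal keratin, was at 3514 and 3056 against 4590 and 11914. *KRT14* was at 80.3 and 190 against 585 and 1880, and *KRT17* at 621 and 1738 against 4947 and 5828. *CDH1* was at 3.89 and 1.54 against 150 and 123, and *CDH3* at 82.1 and 129 against 655 and 619. *TP63* was at 12.6 and 31.2 against 134 and 126, and *EPCAM* at 9.93 and 5.29 against 57.6 and 27.8. Of the luminal keratins, *KRT8* was at 378 and 365 against 194 and 175, *KRT18* at 266 and 296 against 275 and 82.2, and *KRT19* at 0.47 and 0 against 2.70 and 6.42, low in every library. Of the markers of other cell types, 2 of 8 fibroblast genes, 1 of 5 leukocyte genes and 0 of 4 endothelial genes were in the table. The fibroblast genes *COL1A1* and *DCN* summed to 18.3 and 111 against 22.97 and 29.2, *COL1A1* being lower (3.19 and 5.58 against 15.6 and 28.1) and *DCN* higher (15.1 and 105 against 7.42 and 1.09), and *CD14* lay between 8.98 and 15.1 in every library. The part of these markers in the values below was not tested, and in bulk RNA fewer cells of a type cannot be told apart from less RNA per cell.

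Most members were lower in edited cells, and few were near a halving. The share kept had a median of 81.2% over the 57 members, with a middle range from 65.9% to 96.8%. The lowest was 28.9% and the highest 166%. Of the 57 members, 45 had a log2 fold change below 0 and 12 above 0, and 2 lay at -1 or lower, where -1 is a halving. The median was -0.29, and against the mean of the wild-type libraries it was -0.28 in each edited library, so both edited libraries showed the same middle value.

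Sorted by the share kept, 1 member kept under 40%, 8 kept from 40 to under 60%, 18 from 60 to under 80%, 18 from 80 to under 100% and 12 kept 100% or more. Among the 55 members that passed the filter, 12.7% kept from 40 to under 60% and 21.8% kept 100% or more. The same shares were 19.5% and 12.5% for the 257 other tested genes of chromosome 14, and 5.9% and 58.1% for the 8641 tested genes of other chromosomes. Under 40% were kept by 1.82% of the members, 11.7% of the other chromosome 14 genes and 4.11% of the genes of other chromosomes. From 80 to under 100% were kept by 32.7%, 23.3% and 19.4%, as the plot of the share kept shows.

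**Figure D1:**
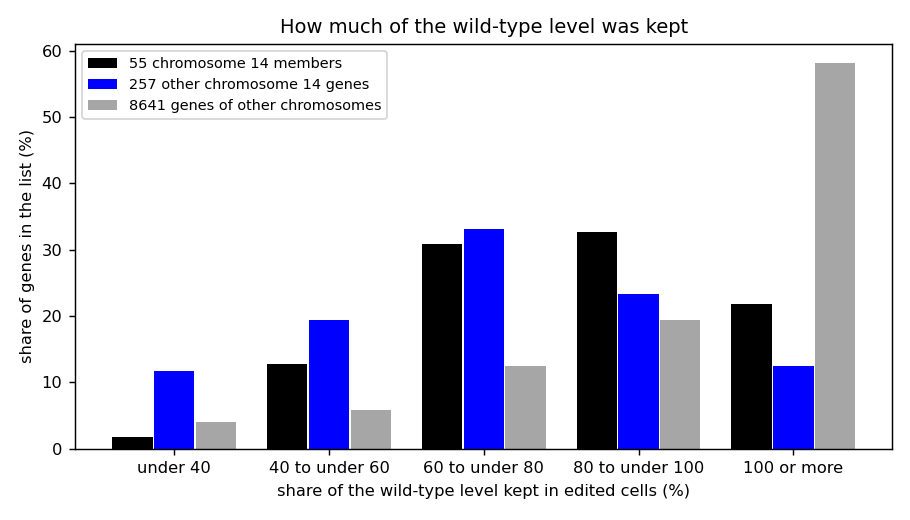
Bars give the share of genes (%, vertical axis from 0) in each class of the share of the wild-type level kept in edited cells (%, horizontal axis) for the 55 members that passed the filter, 257 other chromosome 14 genes and 8641 genes of other chromosomes. The members' tallest bar is the class from 80 to under 100% (32.7%), while 58.1% of the genes of other chromosomes are in the class of 100% or more.

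Both edited libraries lay below both wild-type libraries for 30 of the 57 members, and for 29 of the 55 that passed the filter. Over all 9590 tested genes such a gap was found for 26.9%. Both edited libraries lay above both wild-type libraries for 4 members, against 38.3% of all tested genes. In the remaining 23 members the groups overlapped. By limma with Benjamini-Hochberg adjustment, 1 of the 55 members was called lower at an adjusted p under 0.05 and 0 were called higher, with 16 at an unadjusted p under 0.05, as were 3095 of all 9590 tested genes. Over all tested genes 4.2% were called lower and 2.89% higher. Since the contrast chose the chromosome, nothing is read from these counts. The member called was *ARF6*, and its call was lost without any of the 4 libraries.

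The changes were uneven beyond the spread between replicates. The SD of the log2 fold changes over the 55 members was 0.45. An SD of 0.24 would follow from the differences between replicates of these genes alone. The other chromosome 14 genes had a wider spread, with an SD of 0.78 where their replicates gave 0.33. The genes of other chromosomes had an SD of 0.80 where their replicates gave 0.34, so by the SD only the members were narrower. The range from the lower to the upper quartile was 0.51 for the members and 0.66 for the other chromosome 14 genes. It was 0.73 for the genes of other chromosomes, so by this measure the rest of chromosome 14 was somewhat narrower too. The members kept their differences from each other in pairs of libraries that shared none. Across the 57 members, edited replicate 1 minus wild-type replicate 1 and edited replicate 2 minus wild-type replicate 2 had a Pearson's r of 0.57 and a Spearman's rho of 0.51. With the wild-type libraries exchanged, r was 0.66 and rho 0.59. These are correlations across genes of the same 4 libraries, and genes are not independent replicates. In the first pairing 33 members were below 0 in both differences and 9 above 0 in both.

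No trend along the chromosome was seen among the members. In chromosome order, the 19 members from *PARP2* to *MGAT2* had a median log2 fold change of -0.12, the 19 from *POLE2* to *EIF2S1* had -0.30, and the 19 from *ZFP36L1* to *MTA1* had -0.29. The block nearest the centromere held both the lowest member (-1.93) and 6 members at or above their wild-type level, while each of the other blocks held 3 such members. Over the 57 members Spearman's rho between order and log2 fold change was -0.01, a value given without a test. In windows of 20 Mb from position 20000001 on, the tested members had medians of -0.12, -0.32, -0.17, -0.47 and -0.24. The other chromosome 14 genes had -0.50, -0.35, -0.50, -0.47 and -0.47, so the small change of the first members was not shared by the other genes there.

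The median difference in log2 fold change was 0.38 over the 56 pairs of neighbouring members and 0.42 over all 1596 pairs. *AHSA1*, which encodes an activator of the HSP90 ATPase, and *SPTLC2*, a subunit of serine palmitoyltransferase, lie 36524 bp apart and had log2 fold changes of 0.41 and -0.88. *DYNC1H1*, the heavy chain of cytoplasmic dynein, and *HSP90AA1*, the inducible HSP90 chaperone, lie 24298 bp apart and had -0.24 and 0.68. In contrast, *POLE2* and *KLHDC2*, 79938 bp apart, both had -0.59.

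**Figure D2:**
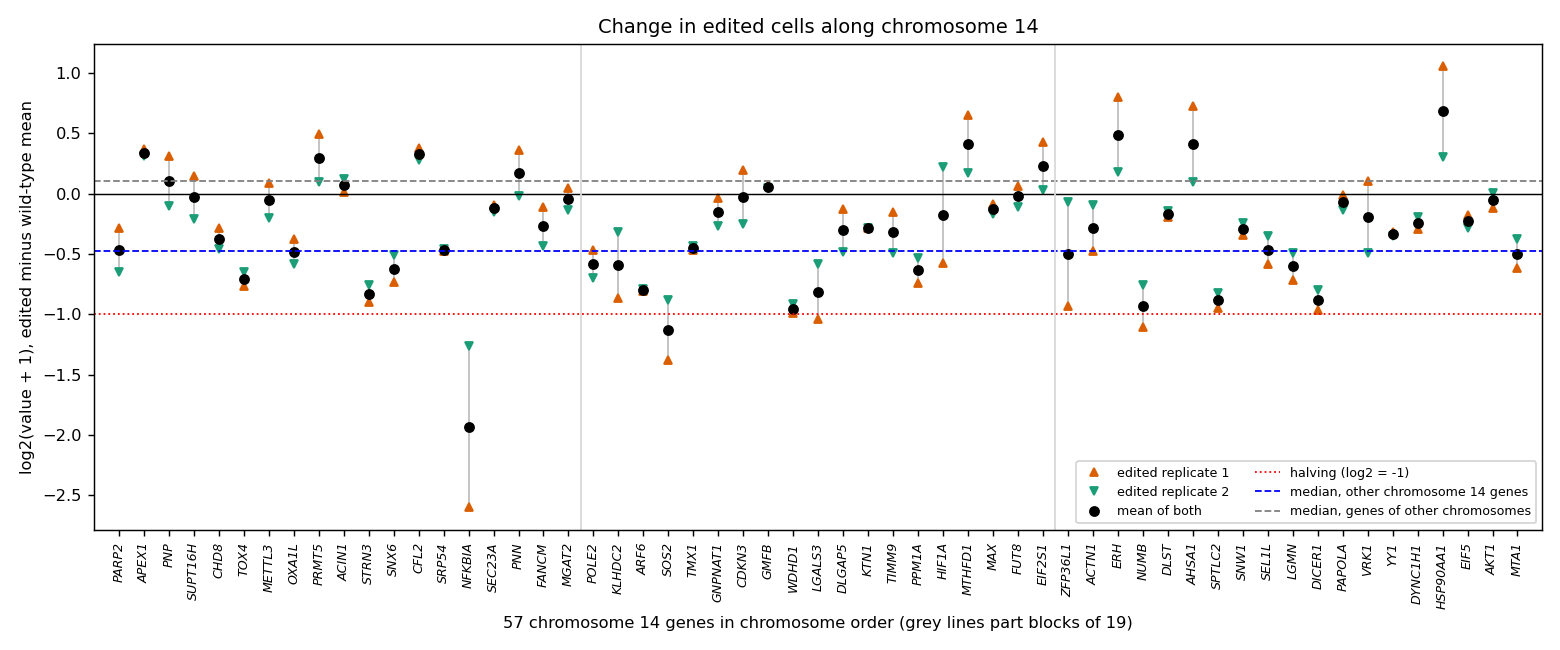
The horizontal axis lists the 57 members in chromosome order and the vertical axis gives log2(value + 1) in edited cells minus the mean of the wild-type libraries, with triangles for each edited replicate and black circles for their mean. The members above 0 stand among longer runs of members below 0, the block medians being -0.12, -0.30 and -0.29, and *NFKBIA* stands lowest at -1.93.

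The member with the lowest share kept was *NFKBIA*, which encodes the inhibitor that holds NF-kB in the cytoplasm and is itself an NF-kB target. Its value was 85.4 and 217 in the edited libraries against 490 and 557. Both edited libraries were far below both wild-type ones, and they differed from each other by more than the wild-type libraries did. The share kept was 28.9%, but 41.5% without edited replicate 1 and 16.3% without edited replicate 2. The log2 fold change was -1.93 (standard error 0.44).

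Below 60% lay 8 other members. *SOS2*, a guanine nucleotide exchange factor that activates RAS, had values of 3.65 and 5.58 against 10.7 and 11.4, a share kept of 41.6%. It was low in every library, so its fold change of -1.13 rests on small values, and the share kept came to 50.3% when edited replicate 1 was left out and to 32.9% when edited replicate 2 was. *WDHD1*, a DNA-binding protein that couples the replicative helicase to DNA polymerase alpha, was at 10.3 and 10.9 against 18.7 and 24.8. It kept 48.9%, with a log2 fold change of -0.95 (standard error 0.22). This was the member nearest to a halving, and its edited libraries nearly coincided.

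The next members were close to it in share kept. *SPTLC2*, which makes the first step of sphingolipid synthesis, was at 11.1 and 12.1 against 23.3 and 21.2 and kept 52.1%. *DICER1*, the RNase that cuts microRNA precursors, was at 15.1 and 17.1 against 25.8 and 35.7 and kept 52.3%. *NUMB*, an endocytic adaptor that restrains Notch signalling, was at 51.2 and 65.3 against 111 and 111 and kept 52.5%. In each of these the groups did not overlap. *STRN3*, a scaffold subunit of the STRIPAK phosphatase complex, kept 54.6%, and *ARF6*, a small GTPase of the plasma membrane and endosomes, kept 56.6% with values of 26.9 and 27.2 against 45.9 and 49.8. *LGALS3*, the galactoside-binding lectin galectin-3, was at 119 and 163 against 290 and 208 and kept 56.7%. Of the 9 members under 60%, 7 stayed under 60% whichever library was left out, the exceptions being *DICER1* and *LGALS3*.

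At the other end, 12 members kept 100% or more. *HSP90AA1* was at 1081 and 641 against 502 and 536. Both edited libraries were above both wild-type ones, edited replicate 1 by much more than edited replicate 2. The share kept was 166%, with a log2 fold change of 0.68 (standard error 0.30). Leaving out edited replicate 1 gave 124%, and leaving out edited replicate 2 gave 208%. *ERH*, a small conserved protein that binds RNA-processing factors, was at 401 and 261 against 235 and 226 and kept 144%. *MTHFD1*, the trifunctional cytoplasmic enzyme of folate metabolism, was at 410 and 294 against 268 and 254 and kept 135%. *GMFB*, glia maturation factor beta, was at 30.8 and 30.4 against 28.7 and 29.9987 and kept 104%. These were the 4 members whose edited libraries both exceeded both wild-type libraries, and in *GMFB* the gap was small.

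The groups overlapped in the other 8. *AHSA1* was at 542 and 350 against 361 and 298 and kept 136%. *CFL2*, the muscle-type cofilin that severs actin filaments, kept 123%, *APEX1*, the main endonuclease at abasic sites, 122%, and *PRMT5*, which dimethylates arginine symmetrically, 122%. In these the wild-type replicates were wide apart, *APEX1* being at 456 and 270. *EIF2S1*, the alpha subunit of the initiation factor eIF2, kept 118%, and *PNN*, a splicing-associated protein of desmosomes and nuclear speckles, 112%. *PNP*, a purine nucleoside phosphorylase, kept 109%, and *ACIN1*, a nuclear RNA-binding protein, 105%.

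In 11 of these 12 members edited replicate 1 was above edited replicate 2, against 20 of the 45 members that kept under 100%. With each library left out in turn, 9 members stayed at 100% or more, 33 stayed under 100%, and 15 crossed it. Scaling bears on these members as well. Of the 12, 9 were still above 0 when the libraries were set to equal totals, where *PNP*, *ACIN1* and *GMFB* were not. By quantile normalization 11 were above 0, where *ACIN1* was not, and *MGAT2* and *FUT8* joined them. After cyclic loess 8 were, where *PNP*, *ACIN1*, *PNN* and *EIF2S1* were not. Equal totals moved the median of all tested genes by -0.12.

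**Figure D3:**
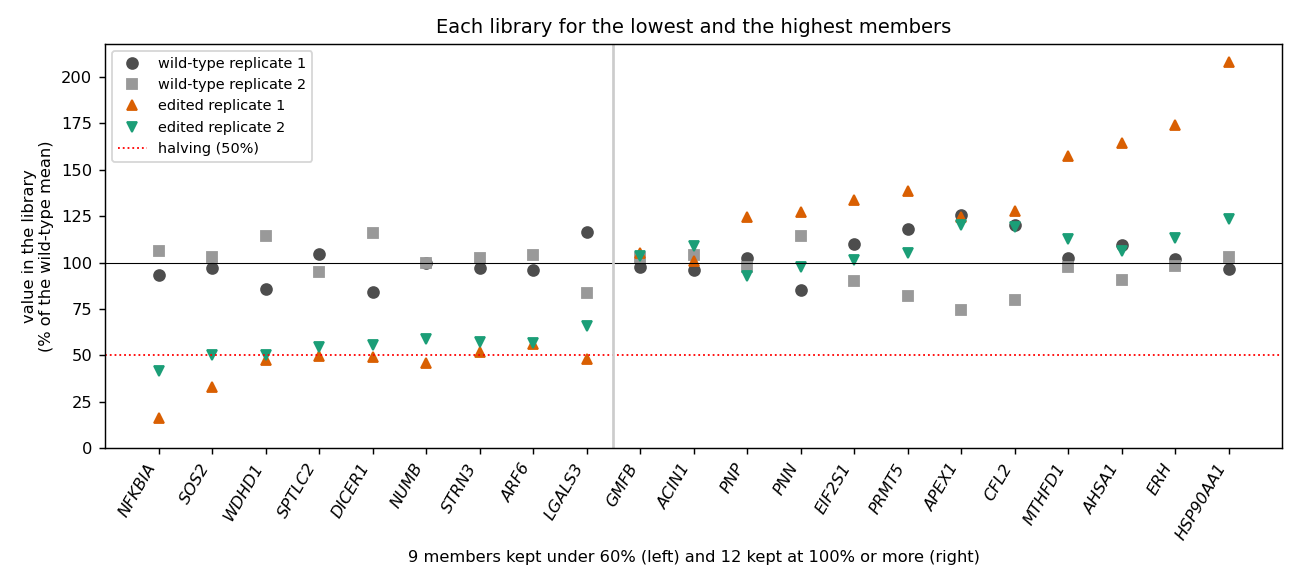
Points give the value of each of the 4 libraries as a share of the wild-type mean (%, vertical axis from 0) for the 9 members kept under 60% (left) and the 12 kept at 100% or more (right). On the left every edited point is below every wild-type point, and on the right edited replicate 1 lies above edited replicate 2 in 11 of 12 members.

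The 250 bases before the annotated start of 4 members are shown from RefSeq (GRCh38.p14) because they carry the extremes of this range and the point of comparison, *NFKBIA* being the lowest member, *WDHD1* the one nearest to a halving, and *ERH* and *HSP90AA1* the highest. Each is read in the direction of transcription on the minus strand. Capitals mark the match to GGAAATTCC (a kappaB site) in *NFKBIA* at chr14:35404750-35404999, to GGGCGG (the GC box) in *WDHD1* at chr14:55027100-55027349, to CCGGAAG (the ETS core, on either strand) in *ERH* at chr14:69398300-69398549, and to GAANNTTC (a pair of heat shock half-sites) in *HSP90AA1* at chr14:102087045-102087294, the inner of its listed starts.
NFKBIA: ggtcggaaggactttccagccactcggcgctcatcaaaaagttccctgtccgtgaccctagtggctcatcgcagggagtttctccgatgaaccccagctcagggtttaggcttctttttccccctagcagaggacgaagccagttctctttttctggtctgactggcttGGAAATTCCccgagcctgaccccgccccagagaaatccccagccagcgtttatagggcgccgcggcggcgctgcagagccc
WDHD1: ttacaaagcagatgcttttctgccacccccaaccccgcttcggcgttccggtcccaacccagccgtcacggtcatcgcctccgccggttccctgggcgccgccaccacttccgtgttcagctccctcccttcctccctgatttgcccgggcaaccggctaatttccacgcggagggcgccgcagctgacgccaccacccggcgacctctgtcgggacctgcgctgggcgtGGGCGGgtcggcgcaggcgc
ERH: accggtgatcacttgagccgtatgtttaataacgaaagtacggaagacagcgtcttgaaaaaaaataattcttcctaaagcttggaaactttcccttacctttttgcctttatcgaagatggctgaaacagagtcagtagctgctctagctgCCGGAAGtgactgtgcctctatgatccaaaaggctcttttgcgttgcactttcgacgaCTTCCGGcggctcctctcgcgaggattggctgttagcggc
HSP90AA1: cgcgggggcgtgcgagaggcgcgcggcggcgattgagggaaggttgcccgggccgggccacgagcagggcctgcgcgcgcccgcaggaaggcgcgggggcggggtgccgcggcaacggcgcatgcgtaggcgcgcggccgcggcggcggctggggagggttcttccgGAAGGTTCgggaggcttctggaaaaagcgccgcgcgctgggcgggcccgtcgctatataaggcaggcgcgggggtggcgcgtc

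Upstream sequence of this kind was found for 54 of the 57 members, not for *GMFB*, *LGMN* and *VRK1*. Motifs were searched on both strands in the 250 bases before any listed start of a gene. The members had 76 such starts, and the shares over all genes were not matched for starts per gene or kind of gene. GGGCGG was found in 41 of the 54 members (75.9%) and in 46.2% of all 27305 genes with such sequence. CCGGAAG was found in 14 members (25.9%, against 10.2%) and TATAAA, the TATA box, in 4 (7.41%, against 13.05%). CCAAT was found in 24 (44.4%, against 37.0%), and CACGTG, the E-box, in 4 (7.41%, against 7.73%). The median GC content was 63.2% in the members and 58% over all genes. These are features of broadly active promoters, and they were found in low and in high members. The 41 members with GGGCGG had a median log2 fold change of -0.32, the 24 with CCAAT had -0.20, and the 14 with CCGGAAG had -0.04. GGAAATTCC was found in *NFKBIA* alone among the members and in 0.502% of all genes. AAGATGGCG, the core of the site for YY1, was found in *HSP90AA1* and *EIF5* and in 0.784% of all genes, and GAANNTTC in *METTL3*, *ZFP36L1*, *DICER1* and *HSP90AA1* and in 7.05%. A match is a description of the letters, and the motifs may overlap one another.

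Grouped by role, the 12 members of the secretory pathway and membrane traffic were all below 0, with a median log2 fold change of -0.46, and in 8 of them the groups did not overlap. Such a gap was found for 26.9% of all tested genes and 70.4% of the other chromosome 14 genes. *SRP54*, which binds signal peptides in the signal recognition particle, was at 48.4 and 48.8 against 68.2 and 66.9 and kept 72.0%. *SNX6*, a sorting nexin of the retromer pathway, kept 64.7%, and *LGMN*, the lysosomal asparaginyl protease legumain, 65.8%. *SEL1L*, an adaptor of the ubiquitin ligase that clears misfolded proteins from the endoplasmic reticulum, kept 71.6%, and *TMX1*, a membrane thioredoxin of that compartment, 72.4%. *SEC23A*, a subunit of the COPII coat, was at 49.02 and 47.1 against 52.2 and 52.4 and kept 91.9%, a small gap with little spread. *KTN1*, a kinesin-binding membrane protein, kept 79.7%. The glycan-making enzymes *GNPNAT1*, *MGAT2* and *FUT8* kept 89.9%, 95.6% and 98.2%, and in all of these the groups overlapped.

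The 7 signalling members had the lowest median, -0.83. With *NFKBIA*, *SOS2*, *NUMB* and *STRN3*, it held 4 of the 9 members kept under 60%. *PPM1A*, a phosphatase of stress kinases and SMADs, was at 29.8 and 34.5 against 53.7 and 47.3 and kept 63.7%. *AKT1*, the kinase downstream of PI3K, was at 257 and 281 against 298 and 262, so its groups overlapped at 96.2%.

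Of the 10 members that process or translate RNA, 6 were below 0 and 4 above, with a median of -0.06. *ZFP36L1*, which speeds decay of AU-rich mRNAs, was at 40.01 and 73.6 against 75.9 and 78.8, so that edited replicate 2 was close to wild-type. *SNW1*, a spliceosome component and coregulator, kept 80.8%, and *EIF5*, the GTPase activator of the initiation complex, 85.3%. *METTL3*, the catalytic subunit of the m6A methyltransferase, kept 96.6%, and *PAPOLA*, the canonical poly(A) polymerase, 95.1%. In both of the last the groups overlapped.

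In chromatin and transcription 7 of 8 members were below 0, with a median of -0.25. *TOX4*, a subunit of a PP1 phosphatase complex, was at 39.4 and 42.9 against 69.2 and 66.4 and kept 60.7%. *MTA1*, a subunit of the NuRD complex, kept 70.3%, *CHD8*, a chromatin remodeller, 76.9%, and *YY1*, a zinc finger transcription factor, 79.1%, each with no overlap. *MAX*, the dimerization partner of MYC, kept 91.1%, and *SUPT16H*, a subunit of the histone chaperone FACT, 98.7%. *HIF1A*, the oxygen-regulated transcription factor, was at 302 and 523 against 484 and 418, so that the edited replicates lay on either side.

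In DNA repair and replication 4 of 5 members were below 0, with a median of -0.47. *POLE2*, a subunit of DNA polymerase epsilon, kept 65.1%, and *PARP2*, a sensor of DNA breaks, was at 34.7 and 26.7 against 42.9 and 42.1 and kept 72.3%. *FANCM*, a translocase of the Fanconi anaemia pathway, was at 7.06 and 5.44 against 5.28 and 10.99, and the groups overlapped. The 3 mitotic members were all slightly below 0. *DLGAP5*, a spindle protein, kept 81.2% with no overlap, while *VRK1*, a chromatin kinase, and *CDKN3*, a phosphatase of cyclin-dependent kinases, kept 89.0% and 96.8% with overlap.

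Of the 5 members of mitochondria and metabolism, 3 were below 0. *OXA1L*, which inserts proteins into the inner membrane, was at 111 and 95.7 against 163 and 127 and kept 71.2%. *TIMM9*, a chaperone of the intermembrane space, kept 78.0% with overlap, and *DLST*, a subunit of the 2-oxoglutarate dehydrogenase complex, 88.4%. Among the cytoskeletal and other members, *KLHDC2*, a substrate receptor of a cullin ubiquitin ligase, kept 65.9%, *ACTN1*, an actin crosslinker, 81.9% and *DYNC1H1* 84.2%.

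Partners encoded on other chromosomes gave a comparison that did not share the chromosome. A list was made of 56 genes whose products bind a member's product or share its complex, of which 52 passed the filter and served 30 members. The partners had a median log2 fold change of 0.22, with 14 of 52 below 0, and a median share kept of 117%. This median rests on the scaling, and was 0.10 with equal library totals, 0.099 by quantile normalization and 0.047 after cyclic loess, where the members' median was -0.41, -0.44 and -0.49. The 30 members had a median of -0.31. The member lay below the mean of its partners in 26 of 30, with a median difference of -0.55. The members' chromosome was chosen by this contrast, and the list of partners was made with earlier results of these data known. The comparison is therefore a description with no test.

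Several complexes had parts on either side. *SRP54* had -0.47, while *SRP68*, *SRP72* and *SRP19* of the same particle had -0.05, 0.39 and 1.02. *SRP19* is encoded on chromosome 5, whose 417 tested genes had a median of 0.36, so a partner's chromosome may be shifted too. *POLE2* had -0.59, while *POLE*, *POLE3* and *POLE4* had 0.18, 0.16 and 0.44. *DICER1* had -0.88, and its binding partners *TARBP2* and *PRKRA* had 0.58 and -0.21. The largest gap was that of *TIMM9* (-0.32) and *TIMM10* (1.45), which form a hexamer together. *TIMM10* was at 125 and 87.6 against 41.8 and 34.1, so that its edited libraries lay far above its wild-type ones. *PRMT5* had 0.29, below its cofactor *WDR77* at 1.36, so a member above its wild-type level could still be below its partner.

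In 4 cases the member was not below the mean of its partners. These were *METTL3* with *METTL14* and *WTAP* (-0.29 and 0.17), *HIF1A* with *ARNT* (-0.39), *HSP90AA1* with *CDC37* and *PTGES3* (0.22 and 0.64), and *APEX1* with *XRCC1* and *LIG3* (-0.30 and 0.34). *SPTLC2* and its partner *SPTLC1*, which is encoded on chromosome 9, were both low, at -0.88 and -0.65.

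**Figure D4:**
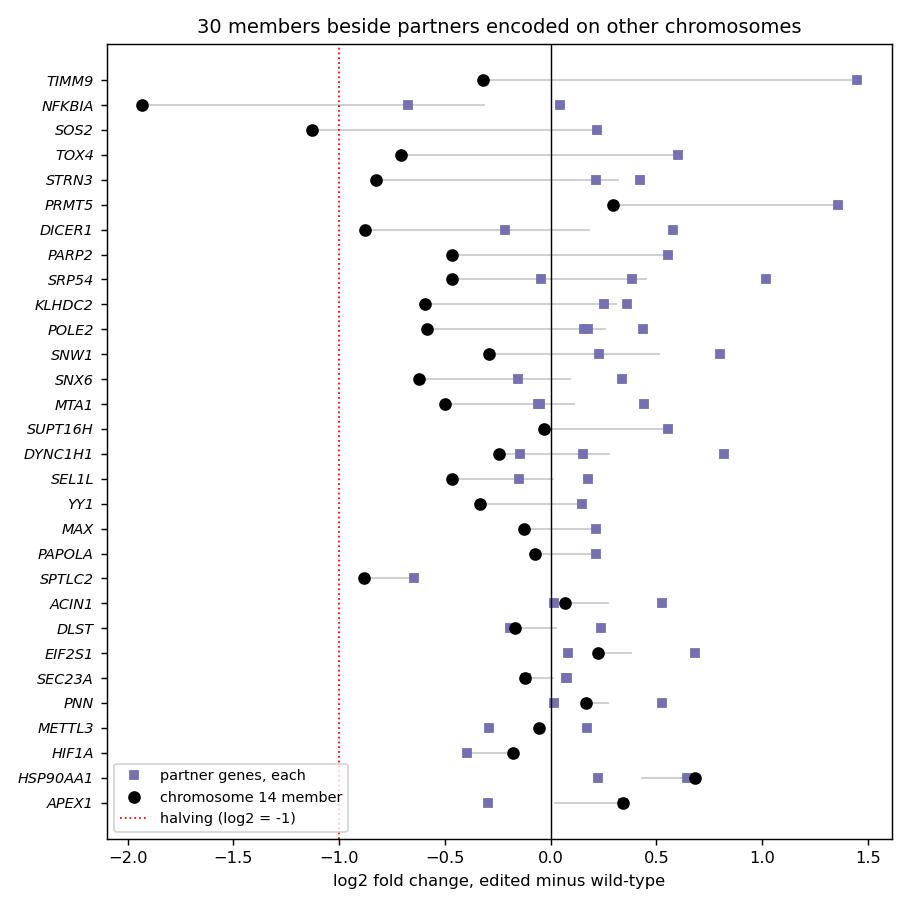
Black circles give the log2 fold change (edited minus wild-type, horizontal axis) of 30 members, and squares that of each of their partners encoded on other chromosomes, sorted by the gap. In 26 of 30 rows the circle lies to the left of the partners' mean, and the median of member minus partners over all 30 is -0.55.

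The change of a member went with its level. Over the 57 members Spearman's rho between the mean value and the log2 fold change was 0.40. Between the length of the gene's span and the log2 fold change it was -0.28, and both are given without a test. The mean value was that of edited and wild-type libraries together, here and in the classes below. The edited values therefore enter both the level and the change, and the level in wild-type cells alone was not used. When the 9590 tested genes were parted into 4 classes of like size by mean value, the median log2 fold change of genes on other chromosomes was -0.03, 0.05, 0.14 and 0.25 from the lowest to the highest class. The other chromosome 14 genes had -0.61, -0.45, -0.46 and -0.39. The members, 24 of which were in the highest class and 18 in the next, had -0.71, -0.47, -0.32 and -0.12.

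Relative to genes of other chromosomes in the same class, the 55 members had a median of -0.48, which is a share kept of 71.6%, and the other chromosome 14 genes had -0.58, or 66.8%. On this scale 46 of the 55 members were below 0 and 3, *NFKBIA*, *NUMB* and *LGALS3*, were at -1 or lower. The 9 that were not below 0 included *HSP90AA1* (0.43), *ERH* (0.23), *CFL2* (0.19), *MTHFD1* (0.16) and *AHSA1* (0.16). The members' middle value over all classes was thus closer to that of their chromosome on this scale, and it was still short of a halving. From the lowest to the highest class, the members' medians relative to other chromosomes were -0.68, -0.52, -0.46 and -0.38. Those of the other chromosome 14 genes were -0.59, -0.51, -0.59 and -0.64. In the highest class, which held 24 members, the members were thus still well above the rest of their chromosome.

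**Figure D5:**
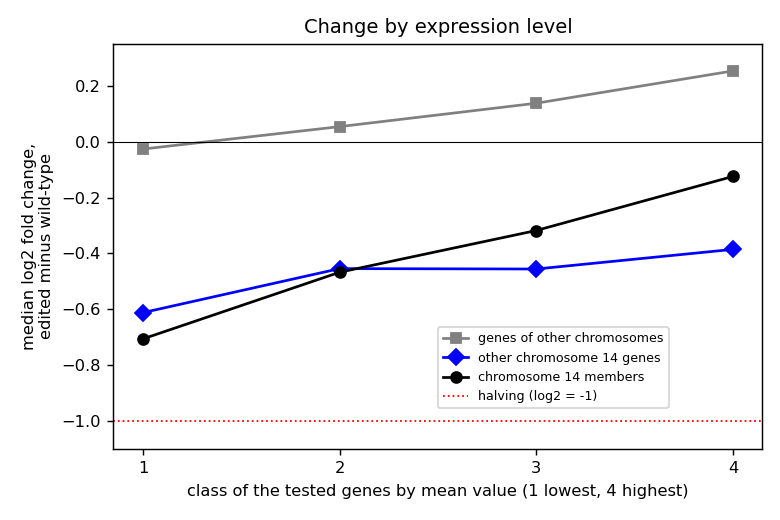
The vertical axis gives the median log2 fold change (edited minus wild-type) of the genes in each class of mean value (horizontal axis, 1 lowest), for genes of other chromosomes, other chromosome 14 genes and the members. All 3 lines end higher than they begin, the members' from -0.71 to -0.12, and both chromosome 14 lines lie below that of other chromosomes in every class.

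The other 257 tested genes of chromosome 14 had a median log2 fold change of -0.48, with 226 below 0. Of them 32 (12.5%) were called lower and 1 higher, against 4.2% and 2.89% of all tested genes. The calls depended strongly on which libraries were kept, and the contrast chose the chromosome, so nothing is read from them. Among the other chromosome 14 genes with a mean of at least 50, the lowest were *SERPINA3*, an acute-phase protease inhibitor (-4.76), and *TNFAIP2*, a target of TNF (-4.36). Next came *ADSSL1*, the muscle adenylosuccinate synthase (-2.14), *PLEKHG3* (-1.88) and *PYGL*, the liver glycogen phosphorylase (-1.45). *SERPINA3* was at 0.626 and 15.4 against 95.1 and 201. It was not called, and its log2 fold change was -3.09 without edited replicate 1 and -6.42 with edited replicate 2 left out, against -3.81 and -4.91 for *TNFAIP2*, so the order of these genes rests on edited replicate 1. *TNFAIP2* was at 14.5 and 32.2 against 415 and 521. The highest were *IPO4*, an importin (1.05), *RN7SL2* (0.78), *C14orf156* (0.60), *GLRX5*, a mitochondrial glutaredoxin (0.52), and *RN7SL1* (0.51). *RN7SL1* and *RN7SL2* encode near-identical 7SL RNAs of the signal recognition particle, which carry no poly(A) tail, and their wild-type replicates differed widely, so that without wild-type replicate 1 they were at -0.40 and -0.04.

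Before the level was taken into account, other chromosomes with low medians were nearer to the members than to the rest of chromosome 14. Relative to genes of like level, the members had -0.48 and the other chromosome 14 genes -0.58. No such value was made for the chromosomes below, so their likeness to the members may rest on level. The median log2 fold change was -0.27 over 150 tested genes of chromosome 13, -0.18 over 374 of chromosome 9 and -0.19 over 449 of chromosome 7, and these were not tested against the members. The share kept had a median of 82.5% on chromosome 13, beside 81.9% for the 55 members. Some members share annotated sequence with other genes. Of the 57 spans, 13 overlap that of another protein-coding gene, *METTL3* and *TOX4* overlapping each other by 1033 bp, and strand was not stated for the counting, so reads in the overlaps may belong to either.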

How the data were processed

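Poly(A)-selected RNA of 2 wild-type and 2 edited MCF12A cultures, described by the authors as biological replicates, had been sequenced from 1 end over 75 bases. Per gene symbol and library, the authors deposited a normalised expression signal. The submitters' processing notes name HISAT2, Salmon and hg38 without roles; the normalisation, and whether it includes transcript length, are not given in the sources used here. Depth is unknown, and the precision is that of 2 replicates. Of the low values of a library, 19.7% to 24.8% were whole multiples of one step within 0.1, so whole reads were not recovered and no count test was used.

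Members and lists were chosen with earlier results of these data known. Edited and wild-type libraries were compared by limma 3.58.1 (R 4.3.3) with a variance trend and no replicate block, on log2(value + 1), for genes with a mean of at least 10, with Benjamini-Hochberg adjustment over all of them and a threshold of 0.05. The fit was tested on simulated data. With 2 libraries a group, the smallest p of an exact permutation test is 0.333. All members could be named; fuller values were given for those with the lowest and highest shares kept and those nearest to 50%, and for 2 to 4 members of a role. Of other chromosome 14 genes, the 5 largest changes each way with a mean of at least 50 were named. Chromosomes and sequences came from RefSeq (GRCh38.p14), matching 8953 of the 9590 tested genes (93.4%). Python 3.11.15, numpy 2.4.6, pandas 2.3.3 and scipy 1.17.1 were used.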

Additional observations from a re-analysis of the deposited data

How the results depend on the processing

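With 2 libraries a group, counts of calls were the least stable values. The 1 member called became 0 with no filter on low values, without the variance trend and at an adjusted p under 0.001, 2 with a mean of at least 50, 5 with equal library totals and 3 after cyclic loess, and from 0 to 3 with a library left out, where 3 was the count without edited replicate 2. Of the 680 genes called, 419 were called with a mean of at least 50 and 1 at an adjusted p under 0.001, and from 4 (without wild-type replicate 2) to 1431 (without edited replicate 2) with a library left out. With a replicate block, 0 members and 133 genes were called, but the deviations of same-numbered libraries correlated at -0.14, so the numbers were not taken to pair the libraries. A crossed replicate block, chosen after seeing the data, called 3 members and 1002 genes, and a robust variance estimate, chosen likewise, called 4 members.

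The directions of the medians of the members, the partners and the other chromosome 14 genes did not turn under these settings. The median of all tested genes (0.09) did, being -0.03 with equal library totals and -0.009 after cyclic loess. The members' median log2 fold change (-0.29) was -0.18 with a mean of at least 50, -0.41 with equal library totals, -0.44 by quantile normalization, -0.49 after cyclic loess, -0.48 relative to genes of other chromosomes of like mean value (chosen after seeing the data), and from -0.30 to -0.25 with a library left out. Less the median of all tested genes (-0.37) it was -0.30 with no filter, -0.49 by quantile normalization, -0.48 after cyclic loess, and from -0.39 to -0.34 with a library left out. The partners' median (0.22) was 0.10 with equal library totals, 0.099 by quantile normalization and 0.047 after cyclic loess, and from 0.16 to 0.25 with a library left out. For the other chromosome 14 genes (-0.48) the median was -0.50 and -0.43 with pseudocounts of 0.1 and 5, -0.42 with a mean of at least 50, -0.59 with equal library totals, -0.51 by quantile normalization, -0.56 after cyclic loess, and from -0.53 to -0.48 with a library left out. The members' SD ran from 0.34 without edited replicate 1 to 0.60 without edited replicate 2, and rho with chromosome order from -0.079 to 0.094. The count of members that kept 40 to under 60% (8) was 11 with equal library totals, 10 by quantile normalization and 12 after cyclic loess. With a library left out that count ran from 8 to 12. The causes were not tested. The limit of these data is 2 libraries a group and values without counts.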
